A study of Mus musculus with 6 samples.

Results

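The 10 genes described here mark the pyramidal neurons of the hippocampal fields CA2 and CA3. They were chosen by gene symbol from a fixed list, with earlier results of these data known. All 10 were present among the 14477 genes with deposited values. *Rgs14*, *Amigo2*, *Pcp4*, *Map3k15*, and *Cacng5* were taken as CA2 genes, and *Bok*, *Cpne4*, *Iyd*, *Coch*, and *Spock1* as CA3 genes. RNA-Seq had been performed on untreated hippocampal tissue from 6 mice, with 1 library each. Replicates 2, 3, and 6 were Phf21bΔ4/Δ4, and replicates 5, 7, and 8 were Phf21b+/+. Phf21bΔ4/Δ4 mice carry a whole-body CRISPR deletion in exon 4 of both copies of *Phf21b*, which encodes a PHD finger protein that reads histone marks. The line retains some *Phf21b* expression and was kept on a C57BL/6J background, and the Phf21b+/+ mice are wild type on the same background. The study used young adult animals of both sexes, and the sex and age of these 6 mice are not given in the sources used here.

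The CA fields are the pyramidal cell layers of the hippocampus. CA3 neurons receive mossy fiber input from dentate granule cells, connect extensively with one another, and send the Schaffer collaterals to CA1. CA2 is a small field between CA3 and CA1 that resists long-term potentiation at its Schaffer collateral synapses and is needed for social memory, the behavior that the study examined in these mice.

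Reads on the listed genes ranged from 20495605 to 24881257 per mouse. Levels are given as CPM, read counts scaled to a common effective library size, and 1 read was worth 0.0422 to 0.0476 CPM. A level of 3 reads, taken as the floor, was 0.127 to 0.143 CPM and covers counting error only. Genotypes were compared with limma's moderated test on log2 CPM, with FDR computed over all 14477 genes, and calls required an FDR below 0.1 together with a change of more than 1.3-fold. *Phf21b* (chromosome 15, 84785381 to 84856049, minus strand, GRCm38) was at 2.15, 3.57, and 3.87 CPM in Phf21bΔ4/Δ4 replicates 2, 3, and 6 and at 6.50, 5.23, and 6.47 CPM in Phf21b+/+ replicates 5, 7, and 8. The targeted gene was thus lower in every Phf21bΔ4/Δ4 mouse than in any Phf21b+/+ mouse, with a log2 fold change of -0.96 (SE 0.26, limma FDR 0.14).

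None of the 10 CA2 and CA3 genes was called between the genotypes (0 of 10), against 1.22% of all genes. By limma voom on reads worked out from the deposited values the count was also 0, against 0.905% of all genes. At an unadjusted p under 0.05 there were 4 of the 10 (*Pcp4*, *Cacng5*, *Coch*, and *Spock1*), and the share among all genes was 23.6%. The log2 fold change was below 0 in 8 members and above 0 in *Rgs14* and *Spock1*, while it was below 0 in 52.4% of all genes. The median log2 fold change of the members was -0.73, beside -0.02 over all genes. In 4 members (*Amigo2*, *Pcp4*, *Cacng5*, and *Coch*), all 3 Phf21bΔ4/Δ4 mice lay below all 3 Phf21b+/+ mice. Among all genes, 16.0% were separated in that direction and 31.0% in either direction. For a single gene in 3 against 3 mice, 0.1 is the smallest p of an exact permutation test. In bulk tissue, fewer cells of a type and less RNA per cell cannot be told apart.

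The Phf21bΔ4/Δ4 mice were not alike in these genes. Replicate 2 lay below the range of the Phf21b+/+ mice in 8 members (38.0% of all genes), and replicate 3 in 9 members (39.3%). The remaining 2 members in replicate 2 and 1 in replicate 3 lay above the range, as did 34.9% and 37.7% of all genes. Replicate 6 lay below that range in 4 members (31.9%), within it in 4, and above it in 2 (30.4%). The median difference of the members from the Phf21b+/+ mean was -0.49 on the log2 scale in replicate 2, -1.32 in replicate 3, and -0.03 in replicate 6. Over all genes these medians were -0.02, -0.02, and -0.01. In all 10 members the SD of log2 CPM was larger among Phf21bΔ4/Δ4 than among Phf21b+/+ mice, as it was in 62.7% of all genes. Its median over the members was 0.73 in Phf21bΔ4/Δ4 and 0.18 in Phf21b+/+ mice, beside 0.17 and 0.13 over all genes.

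With Phf21bΔ4/Δ4 replicate 6 left out, 5 of the 10 members were called by limma. *Pcp4*, *Cacng5*, *Bok*, and *Iyd* were lower and *Spock1* was higher in the other two Phf21bΔ4/Δ4 mice. That fit also called 19.5% of all genes, 9.29% as lower and 10.3% as higher. With any one of the other 5 mice left out, 0 of the 10 members were called. Weighting the mice with limma's arrayWeights called 6 members and 24.5% of all genes. Quantile normalization and centring of the mice each called 1 member, *Pcp4*, and 1.08% and 1.37% of all genes.

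**Figure D1:**
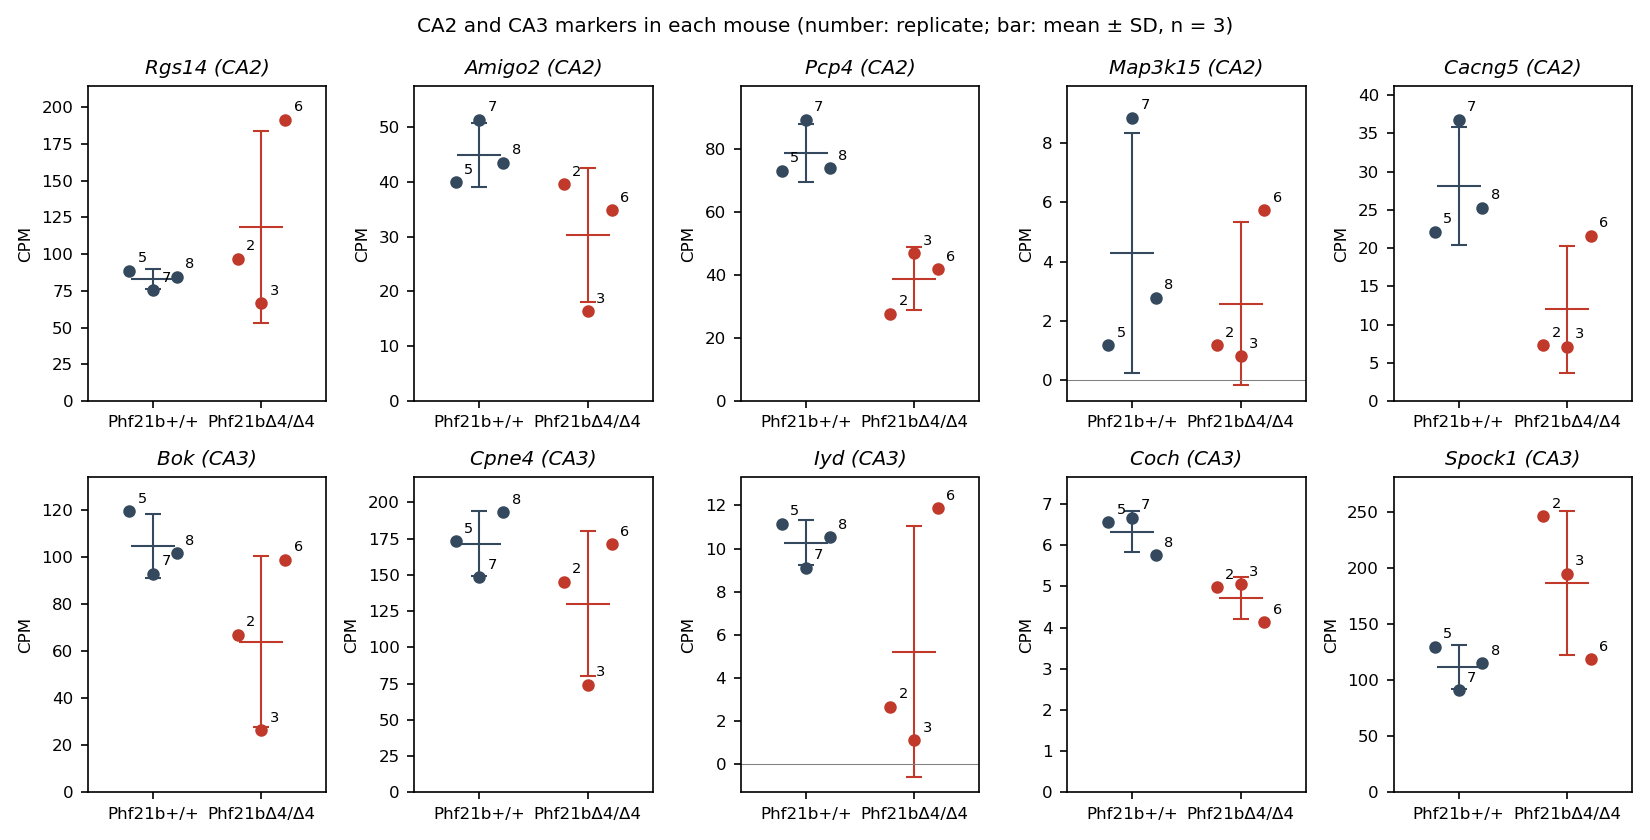
Level of each CA2 and CA3 gene in each mouse. The y axes are CPM on a linear scale, points are mice numbered by replicate, and bars show the mean ± SD of the 3 mice of a genotype. The bar of the Phf21bΔ4/Δ4 mice extends below 0 for *Map3k15* and *Iyd* because the SD exceeded the mean. Replicate 6 lay close to the Phf21b+/+ mice for *Bok*, *Iyd*, and *Spock1*, and replicates 2 and 3 lay away from them.

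*Pcp4* (ENSMUSG00000090223.2, chromosome 16, 96467606 to 96525793, plus strand, GRCm38) encodes a small calmodulin-binding protein, also called PEP-19, that is abundant in CA2 and named for Purkinje cells. It was at 27.7, 47.0, and 41.7 CPM in Phf21bΔ4/Δ4 replicates 2, 3, and 6 and at 73.0, 89.2, and 73.8 CPM in Phf21b+/+ replicates 5, 7, and 8. The highest Phf21bΔ4/Δ4 mouse was well below the lowest Phf21b+/+ mouse. Means were 38.8 ± 9.98 CPM (SD, n = 3) and 78.7 ± 9.14 CPM (SD, n = 3). The log2 fold change was -1.05 (SE 0.20, 95% interval -1.53 to -0.57), a 2.07-fold lower level, and its limma FDR of 0.107 was just outside the threshold. Without replicate 6 the log2 fold change was -1.12 (limma FDR 0.039). *Pcp4* shares 243 bp of exon with *Igsf5* on the same strand, and *Igsf5* was not among the listed genes.

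*Cacng5* (ENSMUSG00000040373.12, chromosome 11, 107874605 to 107915055, minus strand) encodes a transmembrane AMPA receptor regulatory protein (TARP), an auxiliary subunit of AMPA receptors. Its levels were 7.34, 7.10, and 21.6 CPM in Phf21bΔ4/Δ4 replicates 2, 3, and 6 and 22.2, 36.8, and 25.3 CPM in Phf21b+/+ replicates 5, 7, and 8. The genotypes were separated only narrowly, since replicate 6 lay just under the lowest Phf21b+/+ mouse, whereas replicates 2 and 3 were at 26.1% and 25.3% of the Phf21b+/+ mean. *Cacng5* had a log2 fold change of -1.40 (SE 0.45, 95% interval -2.46 to -0.33, limma FDR 0.16) with all mice and -1.93 (limma FDR 0.014) without replicate 6.

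*Amigo2* (ENSMUSG00000048218.6, chromosome 15, 97244125 to 97247287, minus strand) encodes a leucine-rich repeat adhesion protein of the neuronal membrane. It lies 12.4 Mb from *Phf21b* on the same chromosome. Levels of 39.6, 16.4, and 34.9 CPM were measured in Phf21bΔ4/Δ4 replicates 2, 3, and 6, and 40.0, 51.4, and 43.5 CPM in Phf21b+/+ replicates 5, 7, and 8. Replicate 2 was nearly level with the lowest Phf21b+/+ mouse, and replicate 3 was the lowest by far. For *Amigo2* the log2 fold change was -0.66 (SE 0.32, 95% interval -1.43 to 0.11, limma FDR 0.26). Leaving out each mouse in turn moved it between -0.90 and -0.27. *Amigo2* shares 58 bp of exon with *Pced1b* on the opposite strand, and whether the counting used strand is not given in the sources used here.

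*Rgs14* (ENSMUSG00000052087.14, chromosome 13, 55369732 to 55384687, plus strand) encodes a G protein signaling regulator that restricts plasticity in CA2 neurons and is a widely used CA2 marker. It was at 97.0, 66.4, and 192 CPM in Phf21bΔ4/Δ4 replicates 2, 3, and 6 and at 88.7, 75.5, and 84.6 CPM in Phf21b+/+ replicates 5, 7, and 8. The Phf21bΔ4/Δ4 mice lay on both sides of the Phf21b+/+ mice, with replicate 6 at 231% of the Phf21b+/+ mean. Its log2 fold change was 0.37 (SE 0.35, 95% interval -0.47 to 1.22, limma FDR 0.52), and without replicate 6 it was -0.04 (limma FDR 0.87). *Rgs14* was the only member whose direction depended on which mouse was left out.

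*Map3k15* (ENSMUSG00000031303.8, chromosome X, 159988433 to 160123351, plus strand) encodes a MAP kinase kinase kinase of the ASK family. It had the fewest reads of the members, with 28, 17, and 132 in Phf21bΔ4/Δ4 replicates 2, 3, and 6 and 25, 210, and 62 in Phf21b+/+ replicates 5, 7, and 8. These counts corresponded to 1.18, 0.810, and 5.74 CPM and to 1.19, 8.86, and 2.79 CPM. The spread was large within both genotypes, and Phf21b+/+ replicate 5 was as low as Phf21bΔ4/Δ4 replicate 2. A log2 fold change of -0.80 (SE 0.94, 95% interval -3.05 to 1.45, limma FDR 0.61) was smaller than its error, and it was -0.04 without Phf21b+/+ replicate 7. *Map3k15* shares 603 bp of exon with *Pdha1* on the opposite strand.

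*Bok* (ENSMUSG00000026278.14, chromosome 1, 93685660 to 93695764, plus strand) encodes a BCL2 family member and is a marker of CA3 pyramidal cells. Its levels were 67.1, 26.4, and 99.0 CPM in Phf21bΔ4/Δ4 replicates 2, 3, and 6 and 119.5, 92.9, and 102 CPM in Phf21b+/+ replicates 5, 7, and 8. Replicate 6 lay within the Phf21b+/+ range, replicate 2 below it, and replicate 3 lowest, at 25.2% of the Phf21b+/+ mean. The log2 fold change was -0.90 (SE 0.45, 95% interval -1.96 to 0.17, limma FDR 0.27). Without replicate 6 it was -1.31 (limma FDR 0.075), and without replicate 3 it was -0.35.

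*Iyd* (ENSMUSG00000019762.4, chromosome 10, 3540240 to 3554877, plus strand) encodes iodotyrosine deiodinase, known from the thyroid for recovering iodide, and in the hippocampus it marks CA3. It had 63, 23, and 273 reads in Phf21bΔ4/Δ4 replicates 2, 3, and 6, or 2.66, 1.10, and 11.9 CPM. The exact 95% Poisson intervals were 2.04 to 3.40, 0.694 to 1.64, and 10.5 to 13.4 CPM. Their separation exceeded counting error within the genotype. Phf21b+/+ replicates 5, 7, and 8 were at 11.2, 9.12, and 10.5 CPM, so that replicate 6 was above all 3 of them, and replicates 2 and 3 were at 25.9% and 10.7% of their mean. *Iyd* thus had the largest spread of the members among Phf21bΔ4/Δ4 mice, 10.8-fold from the lowest to the highest, and 1.22-fold among Phf21b+/+ mice. *Iyd* had a log2 fold change of -1.65 (SE 0.78, 95% interval -3.52 to 0.22, limma FDR 0.25) with all mice and -2.58 (limma FDR 0.021) without replicate 6.

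*Cpne4* (ENSMUSG00000032564.16, chromosome 9, 104547286 to 105034544, plus strand) encodes a copine, a calcium-dependent phospholipid-binding protein. Its levels were 145, 74.3, and 171 CPM in Phf21bΔ4/Δ4 replicates 2, 3, and 6 and 173, 148, and 193 CPM in Phf21b+/+ replicates 5, 7, and 8. The Phf21bΔ4/Δ4 mice had the same order as for *Bok* and *Iyd*, with replicate 3 lowest and replicate 6 highest. Replicate 2 was at 84.7% of the Phf21b+/+ mean for *Cpne4*, against 64.1% for *Bok* and 25.9% for *Iyd*. Replicate 3 was the only mouse far from the others, at 43.3% of the Phf21b+/+ mean. Its log2 fold change was -0.48 (SE 0.30, 95% interval -1.20 to 0.25, limma FDR 0.36). It was -0.72 (limma FDR 0.14) without replicate 6.

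*Coch* (ENSMUSG00000020953.17, chromosome 12, 51593341 to 51605771, plus strand) encodes cochlin, a secreted matrix protein best known from the inner ear. Unlike the other CA3 genes, it was even within each genotype. Levels were 4.98, 5.05, and 4.13 CPM in Phf21bΔ4/Δ4 replicates 2, 3, and 6 and 6.55, 6.67, and 5.75 CPM in Phf21b+/+ replicates 5, 7, and 8, with no overlap and with replicate 6 lowest. Means were 4.72 ± 0.510 CPM (SD, n = 3) and 6.32 ± 0.497 CPM (SD, n = 3). For *Coch* the log2 fold change was -0.42 (SE 0.15, 95% interval -0.78 to -0.06, limma FDR 0.17).

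*Spock1* (ENSMUSG00000056222.15, chromosome 13, 57421195 to 57908332, minus strand) encodes testican-1, a secreted proteoglycan of the brain matrix. It was the one CA3 gene with a higher mean in Phf21bΔ4/Δ4 mice, at 246, 195, and 119 CPM in replicates 2, 3, and 6 against 129.9, 91.2, and 115 CPM in Phf21b+/+ replicates 5, 7, and 8. Replicates 2 and 3 were above every Phf21b+/+ mouse and replicate 6 was among them. Its log2 fold change was 0.69 (SE 0.27, 95% interval 0.04 to 1.34, limma FDR 0.20), and without replicate 6 it was 0.98 (limma FDR 0.030).

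**Figure D2:**
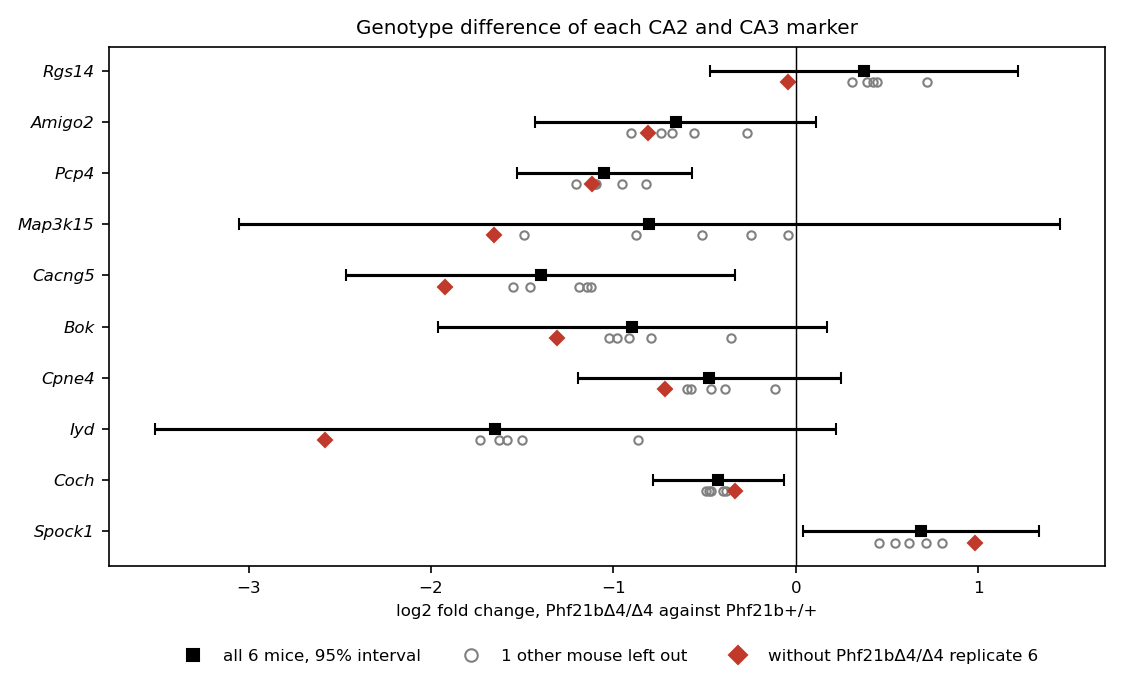
log2 fold change of each CA2 and CA3 gene, Phf21bΔ4/Δ4 against Phf21b+/+, on the x axis. Squares with bars are the fit to all 6 mice with its 95% interval, open circles leave out 1 of the other 5 mice, and diamonds leave out Phf21bΔ4/Δ4 replicate 6. The diamond lay farther from 0 than the square for 8 genes, nearer to 0 for *Coch*, and on the other side of 0 for *Rgs14*.

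Per kilobase of exon, which allows levels of different genes to be compared, the members spanned a wide range in Phf21b+/+ mice. *Pcp4* was highest at 76.7 CPM per kb, followed by *Bok* at 56.9, *Cpne4* at 31.2, and *Rgs14* at 19.6 CPM per kb. *Amigo2* at 14.2 and *Spock1* at 13.4 CPM per kb had overlapping ranges, as did *Cacng5* at 7.33 and *Iyd* at 6.32. *Coch* at 2.11 and *Map3k15* at 0.984 CPM per kb also overlapped. All 10 genes were thus detected in whole hippocampus, and none rested on reads near the floor.

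Across the 6 mice, log2 CPM of *Bok* correlated with that of *Cpne4* at r = 0.97, of *Iyd* at 0.95, of *Amigo2* at 0.89, and of *Cacng5* at 0.78, as a description of 6 libraries. With *Rgs14* it was 0.44, and with *Spock1* it was -0.63. The 3 genes most like *Bok* among 12965 genes were *Trmo*, *Rbm3*, and *Smoc2* (r = 0.998, 0.996, and 0.995). *Smoc2* encodes a secreted calcium-binding matrix protein, and *Rbm3* a cold-inducible RNA-binding protein. The 3 most like *Rgs14* were *Capzb*, *Rhot1*, and *Arpc1a* (r = 0.994, 0.991, and 0.991), of which *Capzb* and *Arpc1a* encode actin-capping and Arp2/3 complex subunits. All of these values rest on the same 6 libraries, and no test is given for them.

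Promoter sequences are shown for the 4 genes that were called lower without replicate 6, a choice made after their values were seen. They are the bases before the RefSeq transcription start on GRCm38.p6, 5′ to 3′ on the strand of the gene, and capitals mark matches to the motifs searched.
Pcp4, chr16:96467356-96467605, plus strand: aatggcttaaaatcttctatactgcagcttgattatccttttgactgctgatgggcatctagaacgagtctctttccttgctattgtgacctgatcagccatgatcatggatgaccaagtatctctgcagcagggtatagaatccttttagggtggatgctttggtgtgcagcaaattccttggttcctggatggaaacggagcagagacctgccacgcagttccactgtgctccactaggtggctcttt
Cacng5, chr11:107915056-107915305, minus strand: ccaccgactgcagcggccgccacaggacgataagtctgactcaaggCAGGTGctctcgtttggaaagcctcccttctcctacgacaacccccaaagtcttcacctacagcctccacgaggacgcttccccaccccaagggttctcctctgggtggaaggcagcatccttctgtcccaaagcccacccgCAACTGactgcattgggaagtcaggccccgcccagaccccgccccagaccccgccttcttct
Bok, chr1:93685325-93685574, plus strand: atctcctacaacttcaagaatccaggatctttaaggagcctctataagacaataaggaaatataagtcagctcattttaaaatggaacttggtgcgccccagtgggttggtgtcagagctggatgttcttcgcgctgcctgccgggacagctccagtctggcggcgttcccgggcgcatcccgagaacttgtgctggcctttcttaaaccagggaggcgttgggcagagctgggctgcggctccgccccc
Iyd, chr10:3540024-3540239, plus strand: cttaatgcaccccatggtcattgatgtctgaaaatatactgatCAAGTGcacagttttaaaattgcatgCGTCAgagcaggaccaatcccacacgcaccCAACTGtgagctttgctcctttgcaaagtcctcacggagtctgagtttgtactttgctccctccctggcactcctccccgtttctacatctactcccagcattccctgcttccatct
For *Iyd* the last 34 bases before the start are not shown, because GENCODE places the first exon there. Its motif matches at positions -39 and -29 reach into those bases and are not marked.

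The motifs were TGACG (the core of the cAMP response element), CANNTG (the E-box), and TATAAA (the TATA box), read on both strands in the 250 bases before each start. RefSeq windows were found for 8 of the 10 members. *Iyd* held all 3 motifs, with TGACG at position -181 from the start, CANNTG at -207, -151, and -39, and TATAAA at -29. *Cacng5* held CANNTG at -204 and -62 in the window shown, and *Cpne4* held it as well. *Pcp4* and *Bok* held none of the 3. Of all 32851 windows, 17.8% held TGACG, 66.2% CANNTG, and 12.4% TATAAA. The 4 promoters thus had no searched motif in common.

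Further genes enriched in the same fields were read out beside the members. Of 8 further CA2 genes listed, 0 were called, with 4 log2 fold changes below 0 and 4 above. Their median log2 fold change was -0.19 without Phf21bΔ4/Δ4 replicate 6 and 0.03 with all 6 mice. *Sostdc1*, a secreted BMP and Wnt antagonist that the choroid plexus also makes, had the lowest value at -2.46 (limma FDR 0.21), and *Actn2*, an actinin that links actin filaments, the highest at 0.66 (limma FDR 0.22). The level of *Sostdc1* rested on Phf21b+/+ replicate 7, at 65.1 CPM against 3.56 and 9.17 CPM in replicates 5 and 8. Choroid plexus markers summed to 15563 CPM in that mouse, and their part in the value of *Sostdc1* was not tested. *Ntf3*, the neurotrophin-3 gene, was at 3.88, 2.86, and 10.9 CPM in Phf21bΔ4/Δ4 replicates 2, 3, and 6 and at 11.9, 10.5, and 10.9 CPM in Phf21b+/+ replicates 5, 7, and 8, so that replicates 2 and 3 were below every Phf21b+/+ mouse and replicate 6 was within their range. *Ntf3* was singled out after its values were seen. In 3 of the 8 genes (37.5%), replicates 2 and 3 were below every Phf21b+/+ mouse and replicate 6 was not. Among all genes, 12.5% had that pattern. In 2 of the 8 genes, all 3 Phf21bΔ4/Δ4 mice lay above all 3 Phf21b+/+ mice, as in 15.0% of all genes.

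Of 7 further CA3 genes, 0 were called, and their median log2 fold change was 0.45. *Nrip3* had the highest value at 0.48 (limma FDR 0.22), and *Homer3*, a postsynaptic scaffold, the lowest at -0.41 (limma FDR 0.54). Among 17 signaling partners of RGS14, including G protein alpha subunits, Ras and Raf proteins, MAP kinases, calmodulins, and CaMKII, 0 were called, with a median of 0.09. Their values ran from -0.30 for *Gnai3* to 0.47 for *Gnao1* (limma FDR 0.18 and 0.16). In the TARP family of 6 genes, 0 were called, and *Cacng5* was the lowest while *Cacng3* was the highest at 0.54 (limma FDR 0.29). Without replicate 6, 1 of 8 other CA2 genes, 1 of 7 other CA3 genes, 3 of 17 RGS14 partners, and 3 of 6 TARPs were called in either direction. That fit called 19.5% of all genes. The TARPs called included *Cacng5*, which is also a member.

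**Figure D3:**
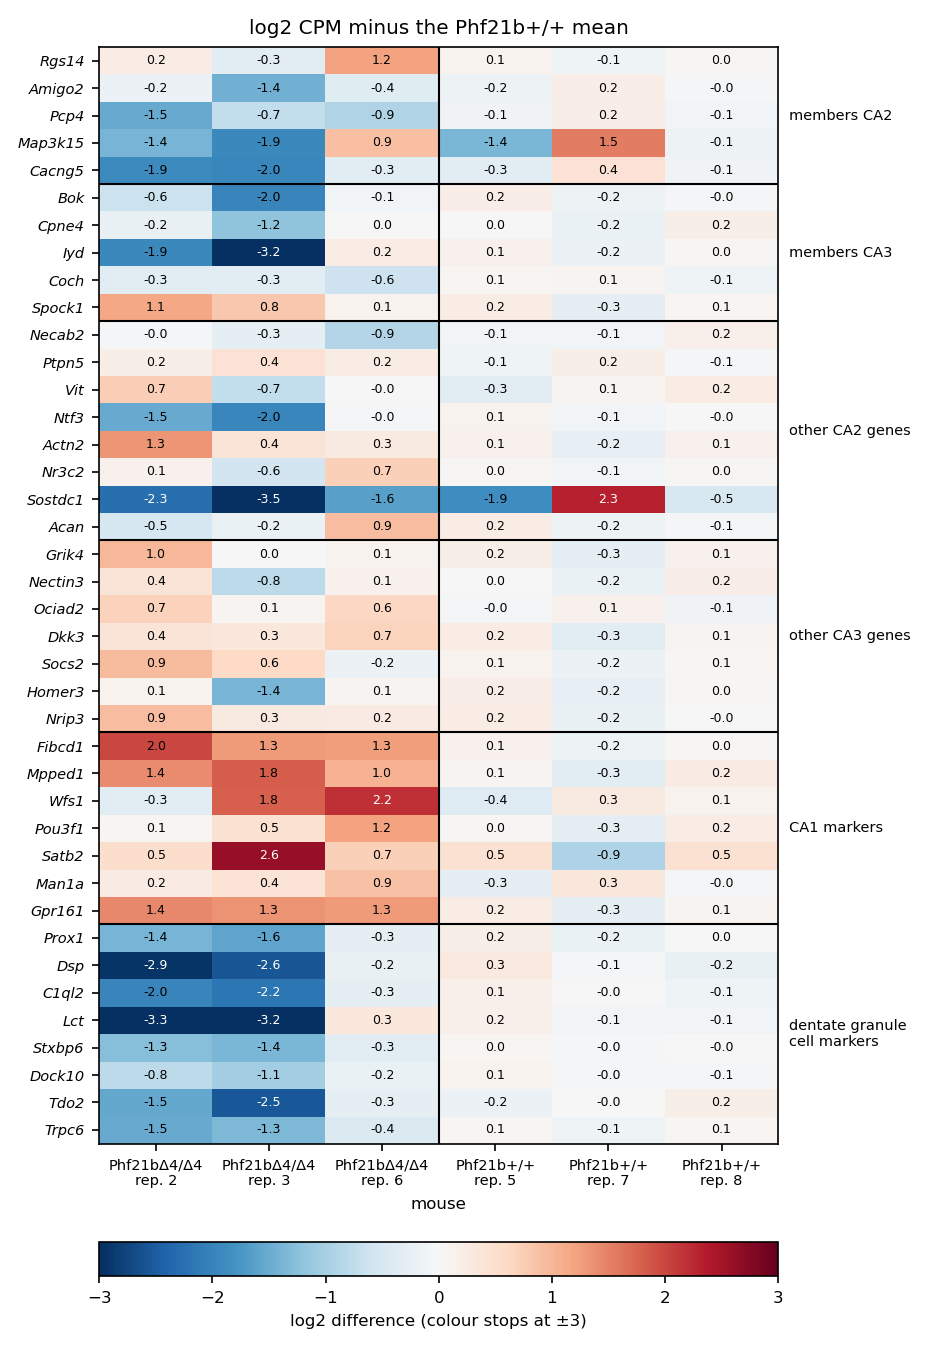
log2 CPM of each gene minus the mean of the Phf21b+/+ mice, for the members, the further CA2 and CA3 genes, CA1 markers, and dentate granule cell markers, with one column per mouse. Blue is below and red above the Phf21b+/+ mean, and the color stops at 3 in either direction. Replicates 2 and 3 were blue for most members and for all 8 dentate genes. Replicate 6 was nearer to white than both for the dentate genes and for *Map3k15*, *Cacng5*, *Bok*, *Cpne4*, *Iyd*, and *Spock1*. It was between them for *Amigo2* and *Pcp4* and farther from white than both for *Rgs14* and *Coch*.

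Markers of the neighboring fields also differed between the mice. All 8 dentate granule cell markers had a log2 fold change below 0, with a median of -1.27, and 0 of them were called. Their median difference from the Phf21b+/+ mean was -1.53, -1.87, and -0.27 in Phf21bΔ4/Δ4 replicates 2, 3, and 6. Without replicate 6, all 8 were called lower, against 9.29% of all genes. The lowest value was that of *Lct*, at -2.07 (limma FDR 0.23), and the highest that of *Dock10*, at -0.68 (limma FDR 0.15). Summed, the list lay at 303 to 833 CPM in Phf21bΔ4/Δ4 and 898 to 1036 CPM in Phf21b+/+ mice. The part of this difference in the values of the CA2 and CA3 genes was not tested.

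The CA1 markers listed had log2 fold changes above 0 in 7 of 7 genes, with a median of 1.28. Of these, 3 were called higher, namely *Fibcd1* at 1.51, *Mpped1* at 1.42, and *Gpr161* at 1.36 on the log2 scale (limma FDR 0.062, 0.072, and 0.029). All 3 are also in the study's own list of differential genes from the same mice. The marker list was chosen with earlier results of these data known, so these calls are not independent evidence. The lowest of the 7 was *Man1a* at 0.51 (limma FDR 0.21). Their summed level was 996 to 1100 CPM in Phf21bΔ4/Δ4 and 409 to 455 CPM in Phf21b+/+ mice. Of 5 genes common to forebrain pyramidal neurons, 0 were called, and their median log2 fold change was 0.10.

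Marker genes of tissue next to the hippocampus also differed in level between the libraries. All 10 medial habenula markers were called lower, with summed levels of 5.0 to 8.56 CPM in Phf21bΔ4/Δ4 and 152 to 215 CPM in Phf21b+/+ mice. Of them, 1, 3, and 3 had 0 reads in replicates 2, 3, and 6. Of 6 thalamus markers, 1 was called lower (*Tcf7l2*, -3.12, limma FDR 0.024). The thalamus list summed to 99.6 to 194 CPM in Phf21bΔ4/Δ4 and 216 to 445 CPM in Phf21b+/+ mice. Most of these habenula genes and *Tcf7l2* are also in the study's own list of differential genes from the same mice. The marker lists were chosen with earlier results known, so these calls are not independent evidence. Choroid plexus markers summed to between 22 and 15563 CPM in Phf21b+/+ mice and to between 22.5 and 79.2 CPM in Phf21bΔ4/Δ4 mice. Neocortex markers summed to 119 to 267 CPM in Phf21bΔ4/Δ4 and 104 to 139 CPM in Phf21b+/+ mice, highest in replicate 3, in which 7 of the 10 CA2 and CA3 genes and 24.8% of all genes were lowest. Whether these marker differences came from the tissue taken or from the genotype was not tested. Their part in the values of the CA2 and CA3 genes was not tested either.

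**Figure D4:**
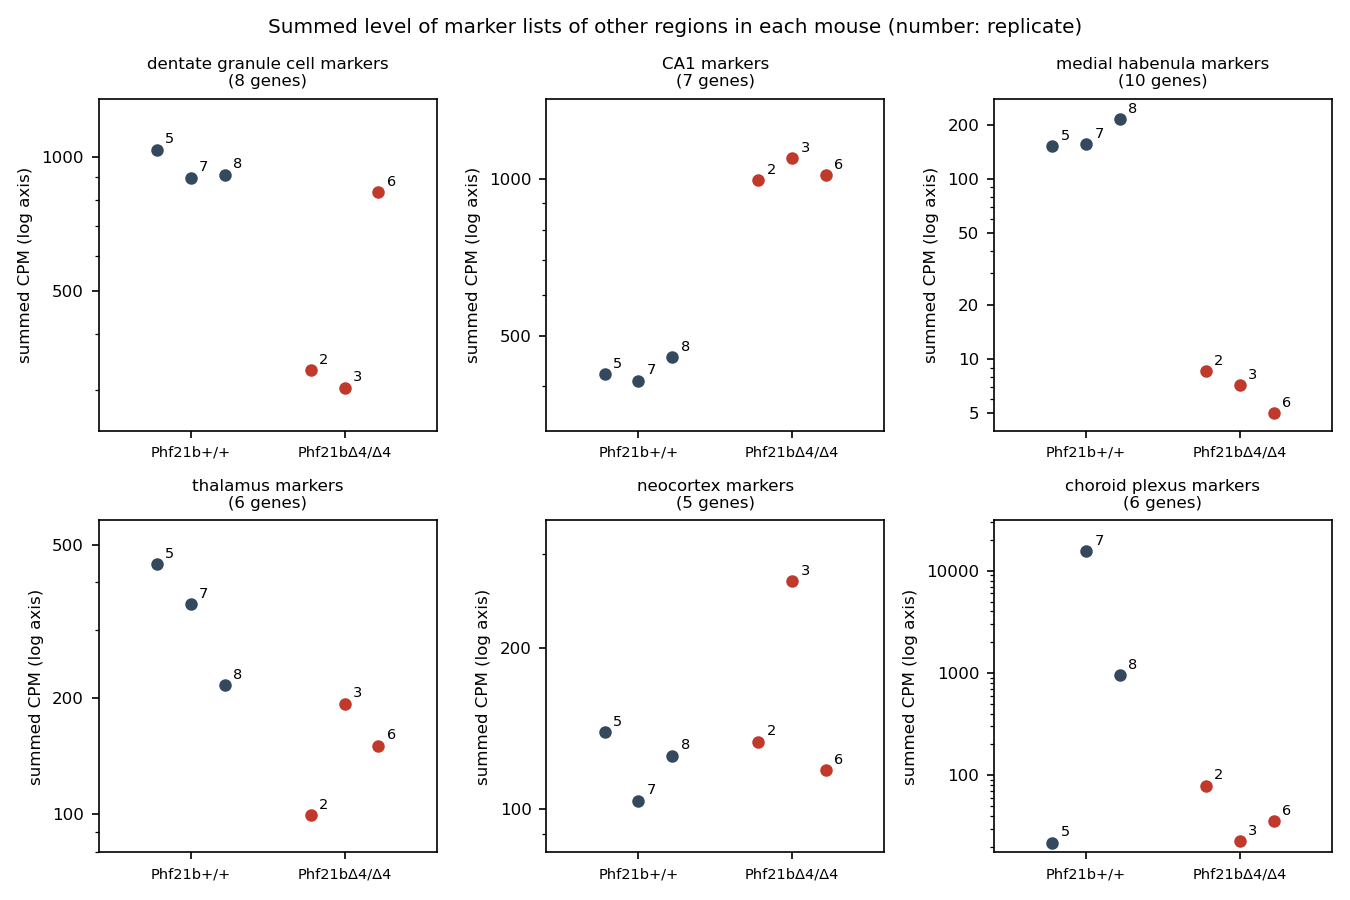
Summed CPM of marker lists of other regions in each mouse, on log axes, with points numbered by replicate. Phf21bΔ4/Δ4 replicate 6 lay at 833 CPM for the dentate list, near the Phf21b+/+ mice, and replicates 2 and 3 at 332 and 303 CPM, whereas all 3 Phf21bΔ4/Δ4 mice were together for the CA1 and medial habenula lists.

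Among interneuron markers, 1 of 6 was called higher (*Gad2*, 0.62, limma FDR 0.083), and among astrocyte markers 1 of 5 was called lower (*Aqp4*, -0.68, limma FDR 0.067). *Gad2* and *Aqp4* are also in the study's own list of differential genes from the same mice. Of 4 oligodendrocyte, 4 microglia, 4 endothelial, 5 striatum, 5 neocortex, and 6 choroid plexus markers, 0 were called.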

How the data were processed

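Hippocampal total RNA of 6 mice had been sequenced after removal of ribosomal RNA. The authors trimmed reads with Trimmomatic 0.39, mapped them to GRCm38 with STAR 2.7.3a, summarized them over GENCODE genes with featureCounts (Subread 1.6.4), removed genes that did not reach 1 CPM in 2 samples, and scaled with edgeR to effective library sizes. The deposited values are log2 CPM of 14477 genes. They came from whole reads with a prior count of 0.1 in 100% of values (tolerance 0.1 reads), so reads and CPM were worked out from them. The deposited log2 CPM of the genotypes were compared by limma 3.58.1 (R 4.3.3; lmFit, eBayes with trend, no covariate), 2-sided, with p-values adjusted by Benjamini-Hochberg across the whole table. The thresholds are those of the authors, who tested counts with edgeR. The fit was tested on simulated data with independent mice and the same spread in both genotypes. That simulation does not cover a mouse that deviates in many genes at once. Each p-value sets a genotype difference against the spread between these mice, moderated toward a trend fitted over all genes.

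The genes named are the 10 members, *Phf21b*, any gene called in the other marker lists and the highest and lowest value of a list where shown (not the medial habenula genes, given by count), and the 3 genes most correlated with *Rgs14* and *Bok*. *Ntf3* falls outside this rule and was chosen after its values were seen. Members and lists were chosen with earlier results of these data known. *Avpr1b* and *Gbx2* of the lists were not among the listed genes. Exon positions and lengths are from GENCODE M21 on GRCm38, promoters from RefSeq. Alternatives were other variance priors, mouse weights, filters, pseudocounts, scalings, voom, other thresholds, and leaving out each mouse. Scripts used Python 3.11.15 with pandas 2.3.3, matplotlib 3.10.9, SciPy 1.17.1, and NumPy 2.4.6.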

Additional observations from a re-analysis of the deposited data

How the results depend on the processing

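The depth of 3 reads, 0.127 to 0.143 CPM, limited none of the CA2 and CA3 genes, and 3 mice per genotype limited all of them. The study used littermates. The litter of each mouse is not given in the sources used here, so no paired analysis was possible. Of 18 alternatives, 14 left the count of members called at 0. An FDR under 0.05, a fold change above 2, and no fold threshold could give no other count. The reason is that the lowest limma FDR of a member was 0.107. The count of members called was 6 when limma's arrayWeights weighted the mice (*Pcp4*, *Cacng5*, *Bok*, *Cpne4*, *Iyd*, and *Spock1*, with 24.5% of all genes called). That fit gave Phf21bΔ4/Δ4 replicate 6 the smallest weight, 0.343, and Phf21b+/+ replicate 8 the largest, 4.63. The count was 1, *Pcp4*, under quantile normalization and when the mice were centred on their medians (limma FDR 0.093 in both). Leaving out each mouse gave 0 to 5 members called, with 5 only without Phf21bΔ4/Δ4 replicate 6. The log2 change of *Rgs14* ran from -0.04 to 0.72 over these fits, the low end, -0.044, without replicate 6. Over the 10 members, 136 of 150 results under the alternatives kept their direction and their side of the threshold, 13 passed the threshold that they had missed, and 1 turned. The median log2 fold change of the members was -0.96 without replicate 6 and -0.31 without replicate 3. Over all genes, 176 were called (96 lower, 80 higher), 75 with the same prior variance for every gene (62 lower, 13 higher), 3549 with arrayWeights, 101 at a mean log2 CPM of at least 1, 25 at an FDR under 0.05, 90 above a 2-fold change, and 9 to 2830 with 1 mouse left out. Centring gave 94 lower and 104 higher calls. The cause of these differences was not tested.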
